A study of Arabidopsis thaliana with 8 samples.

Results

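Regions occupied by the nuclear protein ENAP1 are described here at 10 genes of the Arabidopsis circadian clock. The genes, named by locus, are TOC1, ZTL, GI, PRR5, PRR7, PRR9, LHY, CCA1, ELF3 and LNK1. They are 10 of 27444 nuclear protein-coding genes and were chosen with earlier results of these data known. What part that choice has in their counts was not tested. A region was given to a gene when its summit lay inside the gene or at most 1000 bp beyond either end. Chromatin immunoprecipitation with sequencing (ChIP-seq) was made with an antibody against green fluorescent protein, in 3-day-old whole seedlings of ecotype Col-0 that carry the ein3 eil1 double mutation. The ethylene group was kept for 4 h in hydrocarbon-free air with 10 ppm ethylene, and the air group for the same time in that air alone. Both groups were grown in the dark at 24 °C, and each had 2 ChIP and 2 input samples. The labels name no promoter or line for the tagged protein, no control without the tag, and no separate batches of seedlings for the samples of a group. The authors deposited 1 joint list of regions per treatment, 3293 regions for ethylene and 4526 for air, so no value carries a replicate error and no gene was tested between treatments. A gene without a region in a list is not shown to be unbound, and the lists hold no measure of expression.

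The plant clock is a circuit of repressors that follow each other through the day. The MYB-like factors CCA1 and LHY act in the morning, the pseudo-response regulators PRR9, PRR7 and PRR5 repress them in sequence, and TOC1 and the evening complex, of which ELF3 is the scaffold, act towards the night. GI and the light-sensing F-box protein ZTL set the stability of TOC1 and PRR5 proteins, and LNK1 is a coactivator of afternoon and evening genes. ENAP1 associates with histones and with EIN2, the central membrane protein of the ethylene pathway, while EIN3 and EIL1, absent from these seedlings, are its main transcription factors.

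In the ethylene list 5 of the 10 clock genes had a region, namely TOC1, ZTL, GI, PRR7 and LNK1, against 16.5% of all protein-coding genes. In the air list 6 had one, the same 5 genes and ELF3, against 21.8% of all genes. At all 5 genes present in both lists the ethylene and air regions overlapped, and 13.6% of all genes had such a shared region. ELF3 was the 1 clock gene with a region in air and none in ethylene, a pattern found at 7.99% of all genes. The morning genes CCA1 and LHY and the regulators PRR9 and PRR5 had no region in either list. The 10 genes are long, with a median of 3969 bp against 2078 bp over all protein-coding genes. Genes with a region were also the longer ones in general, with a median of 2453 bp against 2002 bp for genes without one in the ethylene list, and 2432 bp against 1970 bp in the air list. What part gene length has in the counts was not tested.

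The fold enrichment of a region is the ChIP pile-up at its summit divided by the background estimated around it, as the authors' peak caller wrote it. Among the clock genes with a region, the median of the highest fold enrichment was 3.37 in the ethylene list and 7.23 in the air list. Over all genes with a region the medians were 2.85 in ethylene and 5.14 in air. Each list has its own scale, and its values are given as ranks within that list beside the ratio itself. TOC1 stood above the rest in both lists, whereas the order of the other genes was not the same in ethylene as in air. In ethylene the order of fold enrichment was TOC1, LNK1, GI, PRR7 and ZTL. In air it was TOC1, ZTL, GI, PRR7, LNK1 and ELF3. Without replicate values, neighbours in these orders cannot be told apart by their spread.

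**Figure D1:**
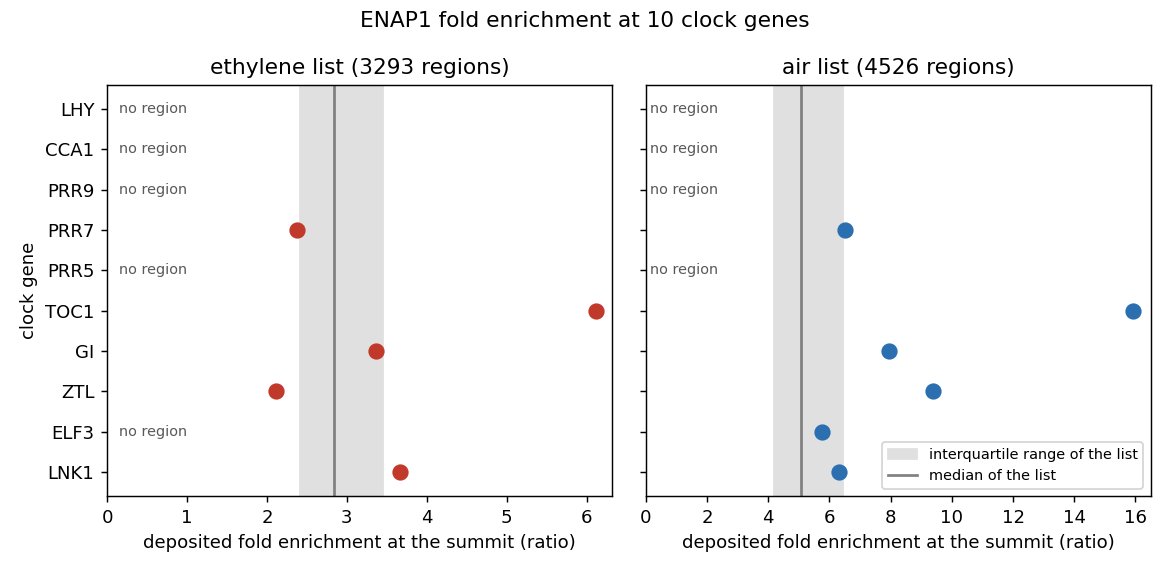
Deposited fold enrichment (ratio, horizontal axis) of the region at each of 10 clock genes in the ethylene list (left) and the air list (right), with the interquartile range and median of the whole list in grey. TOC1 has the highest value in both lists. ZTL, and by a small margin PRR7, lie below the ethylene interquartile range and above that of air. LHY, CCA1, PRR9 and PRR5 have no region.

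TOC1 (AT5G61380) encodes the pseudo-response regulator that represses CCA1 and LHY in the evening. Its ethylene region, at 24674921 to 24675290 of chromosome 5 (TAIR10), had a fold enrichment of 6.12 and rank 49 of 3293. Its air region, at 24675019 to 24675275, had a fold enrichment of 15.9 and rank 31 of 4526. It was thus within the top 1.49% of the ethylene list and the top 0.685% of the air list by fold enrichment. By the deposited −log10 p it had 65.6 and rank 20 in ethylene, and 94.2 and rank 44 in air. The summits of the 2 regions lay 1 bp apart, 178 bp inside the gene in ethylene and 177 bp inside it in air, and 5.80% of 2655 shared pairs had summits that close. Of 3788 genes with a region in both lists, those nearest to TOC1 by the pair of rank percentiles were AT3G02290 and AT3G02300, which had the same values, and AT3G13700. Their fold enrichments were 6.04, 6.04 and 6.18 in ethylene, and 16.2, 16.2 and 15.4 in air. AT3G02290 and AT3G02300 share their highest air region, so they are not separate cases.

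The ratio and the −log10 p of a region together fix the ChIP pile-up and the local background behind it. In air the pile-up was a whole number of fragments at every summit. In ethylene it was a whole number times 0.602, the factor that gave back both deposited values in 100% of regions to within 0.01 in −log10 p. At TOC1 the solved count was 244 ChIP fragments in ethylene (exact Poisson 95% interval 214 to 277) and 107 in air (87.7 to 129). These intervals cover counting error only. Backgrounds are on the scale of the pile-up, which at TOC1 was 147 in ethylene and 107 in air. The background at TOC1 was 23.2 in ethylene and 5.79 in air, or 1.53 and 1.47 times the lowest background of each list. TOC1 had more fragments than 93.7% of ethylene regions and 95.9% of air regions. Its background was below the median of each list, which was 28.0 in ethylene and 8.13 in air.

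ZTL (AT5G57360) encodes the F-box protein that marks TOC1 and PRR5 proteins for degradation. It had the most ChIP fragments of the clock genes in both lists, 255 in ethylene (225 to 288) and 134 in air (112 to 159). That was more than in 95.9% of ethylene regions and 98.7% of air regions. Its fold enrichment was 2.12 with rank 2917 in ethylene (chromosome 5, 23241319 to 23241537), and 9.38 with rank 375 in air (23241314 to 23241562). ZTL was the lowest of the clock genes by this ratio in ethylene and the second highest in air. The ethylene ratio was 0.226 times the air ratio, lower than at all but 0.603% of shared pairs, whose median was 0.492. By −log10 p the difference in rank was smaller but of the same kind, with 16.5 and rank 1524 in ethylene and 84.1 and rank 79 in air.

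The local background moved with this difference at ZTL. It was 72.0 in ethylene and 13.4 in air, which is 4.76 times the lowest background of the ethylene list and 3.40 times that of the air list. The ethylene background was above that of 96.7% of the regions of its list, and the air background above that of 83.4%. Both values were whole numbers of the unit in which backgrounds are stepped, 72 units in ethylene and 28 in air, as a count of input fragments at the summit would give. The ratio of ethylene to air background was 5.37 at ZTL, against a median of 3.94 over shared pairs (interquartile range 3.52 to 4.63). The highest fragment count also differed in its distance from the median of the list, with 293 against a median of 149 in ethylene, and 233 against a median of 48 in air. What part the background and this narrower range have in the lower ethylene ratio was not tested.

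**Figure D2:**
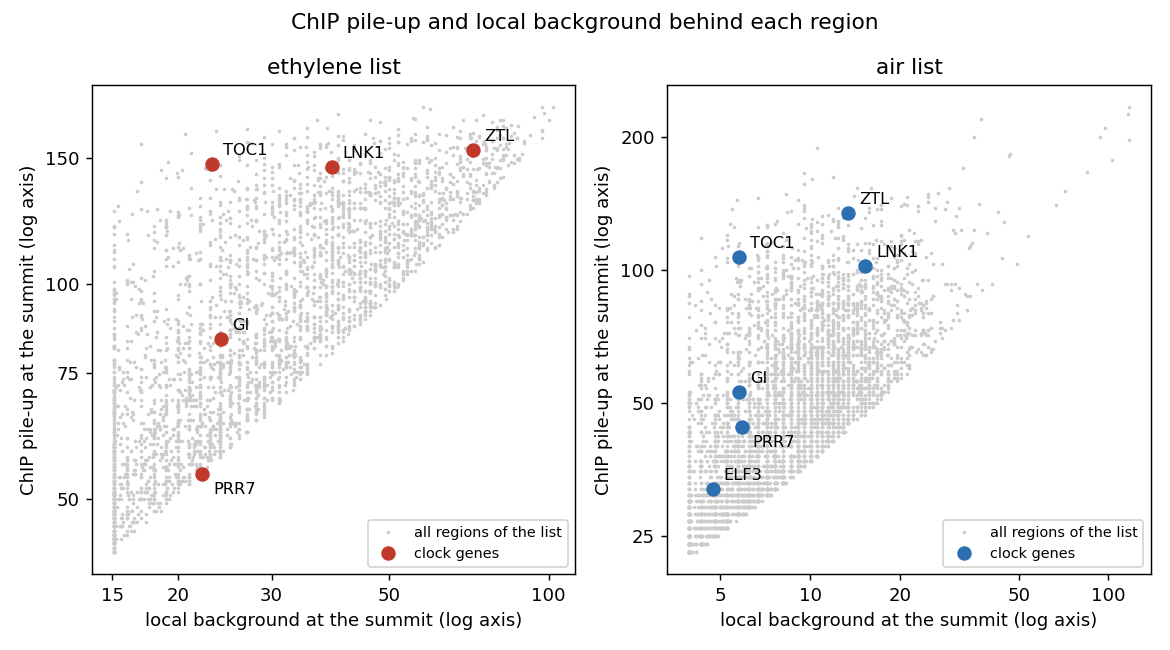
ChIP pile-up at the summit (vertical, log axis) against the local background there (horizontal, log axis) for every region of the ethylene list (left, 3293 grey points) and of the air list (right, 4526), with the clock genes in colour. ZTL has the highest pile-up of the clock genes in both lists, and in ethylene it sits at a background of 72.0, against 23.2 at TOC1.

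GI (AT1G22770) encodes a large protein that stabilizes ZTL in the light and promotes flowering in long days. Its region was near the middle of the list in ethylene by fragments and in the upper part by ratio. It had 139 fragments in ethylene (117 to 164) and 53 in air (39.7 to 69.3). The fold enrichment was 3.37 with rank 899 in ethylene (chromosome 1, 8061705 to 8061909) and 7.95 with rank 591 in air (8061684 to 8061907). The background of 24.1 in ethylene and 5.79 in air was close to that at TOC1. The summits lay 42 bp inside the gene in ethylene and 41 bp in air, so that GI, like TOC1, had its summits 1 bp apart.

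LNK1 (AT5G64170) encodes a coactivator that works with the MYB-like factor RVE8. Of the 5 shared genes it was the 1 with a better rank by fold enrichment in ethylene than in air. The values were 3.67 and rank 659 in ethylene (chromosome 5, 25676974 to 25677333), and 6.31 and rank 1213 in air (25676995 to 25677279). It had 242 fragments in ethylene (212 to 274) and 102 in air (83.2 to 124). Here the background was 39.0 in ethylene and 15.3 in air, and their ratio of 2.55 was lower than at all but 3.09% of shared pairs. In units of each list's lowest background it was 2.58 in ethylene and 3.89 in air, the reverse of the order at ZTL. Whether this moves the ranks was not tested. The summit lay 313 bp beyond the end of LNK1 in ethylene and 307 bp beyond it in air. It fell inside the neighbouring gene AT5G64180, by 64 bp in ethylene and 58 bp in air, so the region belongs to that gene as well, and LNK1 is the only gene of the 10 whose summit was outside it.

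PRR7 (AT5G02810) encodes a pseudo-response regulator of the day that represses CCA1 and LHY. It was the weakest shared region of the 5 by −log10 p, with 8.48 in ethylene and 23.9 in air. The ethylene region was near the end of its list, where the lowest value was 8.43 and 35 regions lay below PRR7. It had 90 fragments in ethylene (72.4 to 111) and 44 in air (32.0 to 59.1). Fold enrichment was 2.38 with rank 2522 in ethylene (chromosome 5, 641878 to 642028) and 6.51 with rank 1095 in air (641902 to 642104). Its background was 22.2 in ethylene and 5.91 in air, close to the values at TOC1 and GI. What part the background has in its rank was not tested. The summits lay 86 bp inside the gene in ethylene and 63 bp in air. The other genes within 1000 bp were a tRNA gene, 456 bp from the ethylene summit, and RHL2.

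ELF3 (AT2G25930) encodes the scaffold of the evening complex, which represses genes at night. It had a region in the air list only, at 11058906 to 11059126 of chromosome 2, with its summit 70 bp inside the gene and 864 bp from the antisense RNA gene AT2G08135. The fold enrichment was 5.77 with rank 1551 of 4526, over a background of 4.72, and the count was 32 fragments (21.9 to 45.2). By −log10 p, 16.7, it held rank 2718. Of the 1131 air regions in the same quartile of −log10 p, 45.1% overlapped an ethylene region, and of the 1131 in the same quartile of fold enrichment 69.6% did. The nearest ethylene summit lay 2659 bp beyond ELF3, at ALPHA-VPE.

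Among the 4 clock genes without a region, PRR5 (AT5G24470) came nearest. A region shared by both lists lay at AT5G24460, with its summit 1334 bp beyond PRR5 in ethylene and 1366 bp in air. Its fold enrichment was 1.79 with rank 3252 in ethylene and 5.0 with rank 2352 in air. For CCA1 (AT2G46830) the nearest summit lay 2043 bp beyond the gene in ethylene and 2040 bp in air, at PSI-P, with a fold enrichment of 3.86 in ethylene and 6.41 in air. For PRR9 (AT2G46790) it lay 2226 bp beyond in ethylene and 2227 bp in air, at the zinc transporter gene ZAT, with a fold enrichment of 2.35 in ethylene and 9.42 in air. That air region at ZAT held rank 366 and the ethylene one rank 2573. LHY (AT1G01060) was the farthest of the 4 from a region, with the nearest summit 80585 bp beyond the gene in ethylene and 9035 bp in air. Inside the window of 1000 bp, the region farthest outside its gene was that of LNK1.

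**Figure D3:**
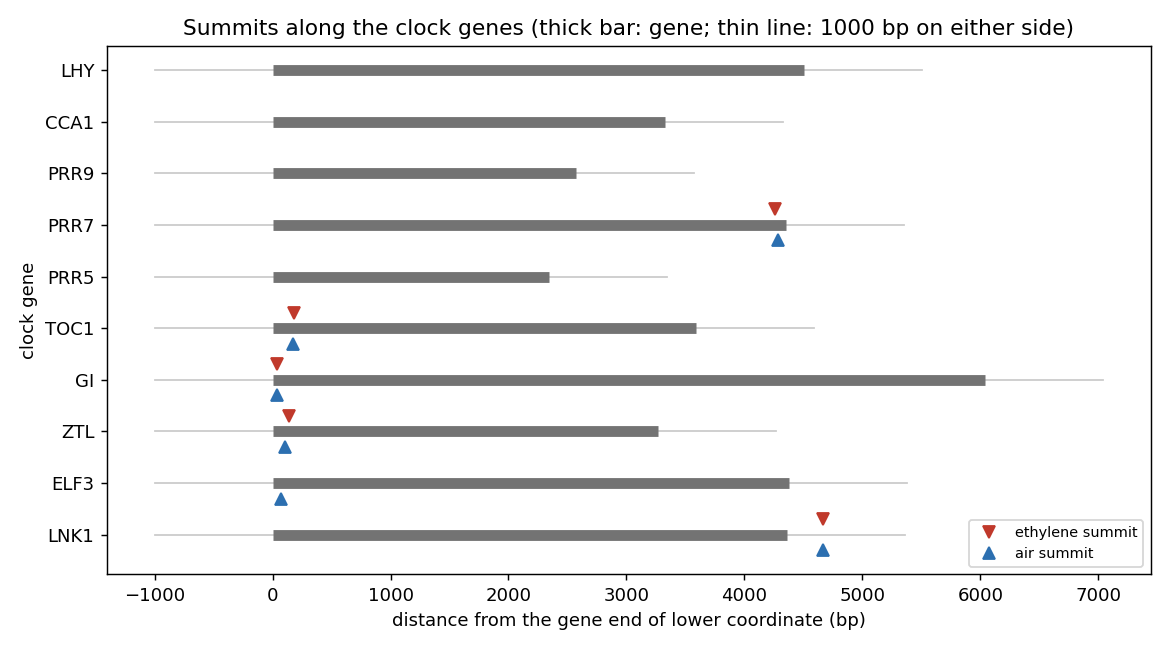
Position of each summit along 10 clock genes, as the distance in bp from the gene end of lower coordinate, with the gene as a thick bar and 1000 bp on either side as a thin line. Ethylene summits are triangles pointing down and air summits triangles pointing up. Summits sit at 1 end of TOC1, GI, ZTL, ELF3 and PRR7, and beyond the end of LNK1.

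The summits lay near gene ends, as they did at most regions of both lists. All 5 ethylene and all 6 air summits were at most 200 bp inside an end of some protein-coding gene, where 53.3% of all ethylene summits and 51.7% of all air summits lay. The gene was the named one for 4 of 5 in ethylene and 5 of 6 in air, and AT5G64180 in place of LNK1. The distance from the nearer end of the named gene was 42 to 178 bp in ethylene and 41 to 177 bp in air for those inside it. At TOC1, GI, ZTL and ELF3 that was the end of lower coordinate, and at PRR7 and LNK1 the end of higher coordinate. The gene table gives no strand, so the transcription start was not told from the end. No clock gene of the 10 had more than 1 region in a list, while 7.48% of all genes with an ethylene region and 11.2% of those with an air region did. Ethylene and air summits of the 5 shared regions were 1, 38, 1, 23 and 6 bp apart at TOC1, ZTL, GI, PRR7 and LNK1, against a median of 16 bp over all shared pairs (interquartile range 7 to 29). The shared part was 257 bp at TOC1, 219 bp at ZTL, 203 bp at GI, 127 bp at PRR7 and 285 bp at LNK1.

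In rank by fold enrichment the 5 shared genes differed in how alike their places in the lists were. The position from the top of the list was 1.49% in ethylene and 0.685% in air at TOC1, and 20.01% in ethylene and 26.8% in air at LNK1. At GI it was 27.3% in ethylene and 13.1% in air. At PRR7 it was 76.6% in ethylene and 24.2% in air, and at ZTL 88.6% in ethylene and 8.29% in air. The difference of ethylene minus air was 80.3 percentage points at ZTL and 52.4 at PRR7, above those of 99.5% and 90.4% of shared pairs. The median over shared pairs was 8.11 points (interquartile range -4.82 to 30.8), so TOC1 with 0.803, GI with 14.2 and LNK1 with -6.79 were nearer to it.

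**Figure D4:**
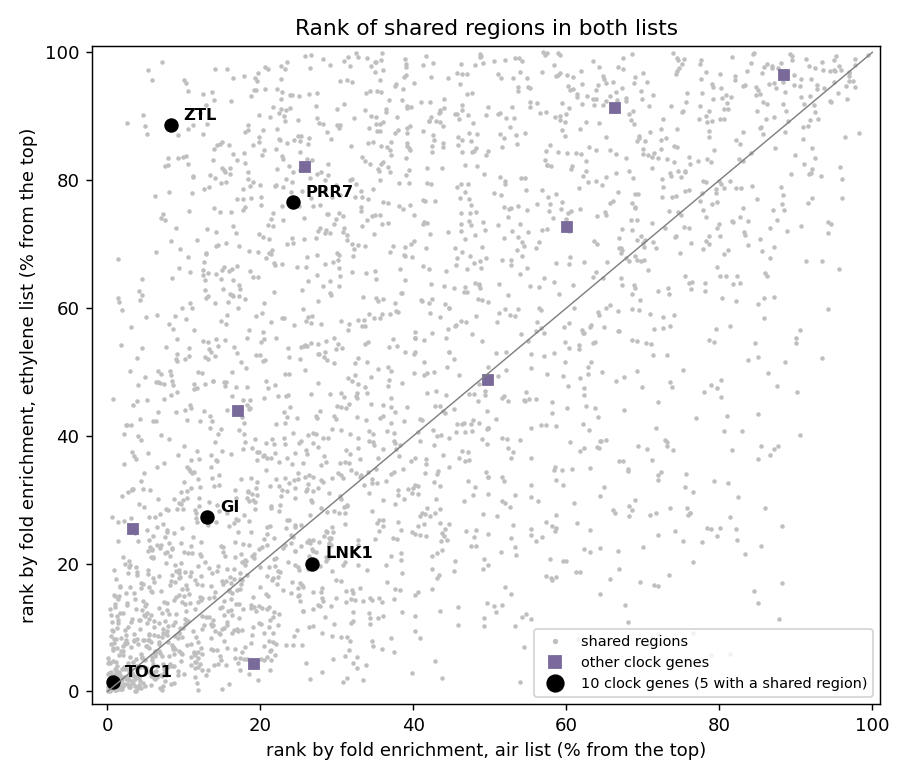
Rank by fold enrichment in the ethylene list (vertical) against the air list (horizontal), each in percent from the top, for 2655 shared pairs (grey), the 5 clock genes with a shared region (black) and 6 other clock genes (squares, 8 regions). ZTL and PRR7 lie far above the line of equal rank and TOC1 lies at the corner of the highest ranks.

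The wider clock network was read from 34 further genes. Of these, 9 (26.5%) had a region in the ethylene list and 12 (35.3%) in the air list, beside the 16.5% and 21.8% of all genes given above. These shares depend on the threshold, and at a −log10 q of at least 10 they were 8.82% against 11.3% of all genes in ethylene and 20.6% against 18.95% in air. A shared region was found at 6 of the 34 (17.6%), near the 13.6% of all genes. A region in ethylene only was found at 3 (8.82%, against 2.66% of all genes) and in air only at 6 (17.6%, against 7.99%), and 19 had none. These counts depend on the threshold as well. At a −log10 q of at least 10, LNK3, RVE8 and LKP2 had no ethylene region, and LUX, RVE1, RVE2 and SRR1 no air region. RVE4 and LWD2 then kept a region in air only, as did BOA and FIO1, and CDF3 kept none in either list. Regions of the 34 genes were lower than those of the 10 genes, with a median highest fold enrichment of 2.62 in ethylene and 4.60 in air. That is below the medians of 2.85 and 5.14 over all genes with a region.

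TIC, a nuclear regulator of the clock, had the highest air value of these, and it had 2 regions inside the gene in both lists. The stronger was 3.43 with rank 837 in ethylene (chromosome 3, 7915128 to 7915335) and 11.6 with rank 154 in air (7915063 to 7915338). Its summit lay 2326 bp inside the gene in ethylene and 2312 bp in air, deeper than any summit of the 10 genes. The weaker was 2.96 in ethylene and 7.29 in air, with summits 108 bp inside the gene in ethylene and 105 bp in air. CKB4, a regulatory subunit of casein kinase II, which phosphorylates CCA1, had the highest ethylene value, 5.17 with rank 144, and 7.06 with rank 868 in air. Its summits lay 290 bp beyond the gene in ethylene and 266 bp in air, and beyond the neighbouring gene AT2G44670 by 70 bp in ethylene and 94 bp in air.

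Among the MYB-like REVEILLE factors 2 of 8 genes had a region in ethylene and 3 in air, numbers too small to set apart from the 16.5% and 21.8% of all genes. RVE4, an activator of evening genes, had 2 regions in both lists, the stronger with 2.27 in ethylene and 6.39 in air, and the weaker, with 1.90 in ethylene and 3.66 in air, inside the neighbour AT5G02850. RVE8, its close relative and a partner of LNK1, was in the ethylene list only, at 2.29. RVE1 and RVE2 were in the air list only, at 4.31 and 4.86. Both were near the end of that list by −log10 p, at ranks 4504 and 4315 of 4526. They had 26 and 23 fragments, and no air region had fewer than RVE2. RVE1 overlaps another annotated gene at its air summit, AT5G17305. Of 3 evening complex genes beside ELF3, none had a region in ethylene and 2 had one in air. These numbers too are too small to set apart from the 16.5% and 21.8% of all genes. LUX, a DNA-binding factor of the complex, had 3.57 and its relative BOA 3.60 in air, at ranks 4085 and 4047 of 4526, and ELF4 had no region. The LUX summit was 295 bp beyond that gene and 187 bp beyond the neighbour AT3G46630, and LUX had no region with the narrowest window, the stricter −log10 q or the nearest gene only.

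Among the 3 relatives of LNK1, LNK3 had a region in ethylene only, at 2.68, and its summit lay 387 bp beyond the gene and inside the neighbour BUG22. Of the 2 F-box relatives of ZTL, LKP2 had a region in ethylene only, at 2.62, whose summit fell inside the noncoding RNA gene AT2G18917, and FKF1 had none. Both families are too small to set apart from the 2.66% of all genes with a region in ethylene only. CDF3, 1 of 4 cycling DOF factors, had 2.86 in ethylene and 5.06 in air, with both summits just beyond the gene end. It had 75 fragments in ethylene, more than at 2.16% of that list's regions, and 24 in air, more than at 0.795%. At a −log10 q of at least 10 it had no region in either list. A count of 1 of 4 is too small to set apart from the 13.6% of all genes with a shared region. PRR3, the remaining pseudo-response regulator, had no region. CHE, a TCP-family repressor of CCA1, had 2.45 in ethylene and 4.71 in air, with a second region of 4.26 in air that lay inside the neighbour ATSTE14B. LWD2 had 2.05 in ethylene and 4.49 in air with summits inside its neighbour AT3G26630. FIO1 and SRR1 were in the air list only, at 3.19 and 3.23, and the SRR1 summit lay inside its neighbour RDUF2.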

How the data were processed

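ENAP1 ChIP-seq was made in 8 samples, 2 in each of the 4 groups ethylene ChIP, ethylene input, air ChIP and air input. Alignment used BWA and TAIR10, and region calling used MACS2 version 2.1.0.20150603, per the submitters' processing notes. Both ChIP samples of a treatment name the same deposited list, and its selection as optimal is not explained there. Of the deposited values, fold enrichment is a ratio to the local background, significance is given as −log10 p and −log10 q, and the score was not used. Start, end and summit are positions given here counted from 1.

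Genes and symbols are those of RefSeq (assembly TAIR10.1), whose table here holds neither strand nor sequence. All 10 clock genes and 30 of 34 further ones matched by symbol or synonym, and AT1G01520, AT4G01280, AT5G52660 and AT1G69570, none with a region, were placed by locus only. Positions were checked by the share of summits at most 200 bp inside a protein-coding gene's end, which was 53.3% in ethylene and 51.7% in air, and 19.2% to 20.7% once summits were moved by 200 bp. Regions overlapped when they shared at least 1 bp, and a shared pair is an ethylene region with the air region it overlaps most. Pile-up and background were solved from the fold enrichment and −log10 p, with 1 added to both as the peak caller does, and the procedure was tested on simulated data. A background was called whole when it was within 0.001 of a whole number of its unit, 1 in ethylene and 0.478 in air, which held for 61.5% of ethylene and 64.7% of air regions. No test was made, since no value per library was at hand, and total reads per library are unknown here. Python 3.11.15, pandas 2.3.3, NumPy 2.4.6 and SciPy 1.17.1 were used.

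The 10 genes, the 34 further ones and the alternatives were chosen with earlier results of these data known. Named are all 10 genes, each further clock gene with a region, neighbours nearer to a summit, and the 3 genes most like the highest clock gene. Motif counts were not run, as no sequence was at hand.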

Additional observations from a re-analysis of the deposited data

How the results depend on the processing

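The 10 clock genes kept their counts within 1.5 times under all alternatives tried. These were windows of 0, 500 and 2000 bp, a −log10 q of at least 10, each summit counted for its nearest gene only, an overlap of 50% of both regions, and summits within 100 bp. The count was 4 to 6 of 10 in ethylene, 5 to 7 in air and 4 to 6 for shared regions. LNK1 dropped out with a window of 0 bp and with the nearest gene only, PRR7 dropped out of the ethylene list at the stricter −log10 q, and PRR5 came in at 2000 bp. The share of all genes went from 9.28% to 20.9% in ethylene and from 12.2% to 27.2% in air over the windows. With the nearest gene only it was 11.2% in ethylene and 15.1% in air. For shared regions the share of all genes is known here for the main setting only, 13.6%. The shared counts under the alternatives thus have no such share beside them. The 34 further genes depended more on the choice. With a window of 0 bp they numbered 4 in ethylene, 6 in air and 3 shared, against 9, 12 and 6. That was 11.8% of the 34 genes in ethylene, against 9.28% of all genes, and 17.6% in air, against 12.2%. At a −log10 q of at least 10 they numbered 3, 7 and 3. That was 8.82% in ethylene, below the 11.3% of all genes, and 20.6% in air, near the 18.95% of all genes. No paired analysis was possible because the deposited lists join both replicates of a treatment, which also kept any replicate from being left out. Motif alternatives were not run.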
